A study of Rattus norvegicus with 12 samples.

Results

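The acid-sensing ion channel (ASIC) genes Asic1, Asic2, Asic3 and Asic4 were chosen by name, as the rows of the count table that carry these 4 symbols among 17494 genes. They were chosen with the boldine comparison of these libraries known, in which Asic1 was among the genes with a small unadjusted p. Their differences between treatments are therefore given as a description. No p-value of theirs is printed for it, and whether members passed a threshold is given only beside the share of all genes. The RNA came from adult male Long Evans rats, of wild-type genotype by the labels, which received 3 blast exposures at 1 per day beginning at 10 weeks of age and were sacrificed 29 weeks after blast. Blast-boldine rats (n = 6) ate chow with boldine, an alkaloid of the boldo tree, at 500 mg per kg of chow from the second week after blast until sacrifice. Blast-control rats (n = 6) ate the same chow without boldine. Every sequenced rat was exposed to blast, so the comparison concerns boldine after blast and has no uninjured reference. By the labels the tissue is brain, and by the methods of the study it is hippocampus. Markers of dentate granule, CA1, and CA2 and CA3 pyramidal neurons were present in all 11 deeper libraries.

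ASICs are sodium-conducting channels of the degenerin and epithelial sodium channel family that open when the fluid outside the cell turns acidic. A channel is a trimer, and subunits combine: ASIC1a carries most of the proton-gated current of brain neurons and also passes some calcium as a homomer, ASIC2 subunits join ASIC1a and help to place it at synapses, ASIC3 is best known from sensory neurons, and ASIC4 gives no proton-gated current on its own. In the hippocampus ASIC1a is known for roles in synaptic plasticity and in cell death during acidosis.

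In the annotation used for the counts (mRatBN7.2), Asic1 lies at chr7:130799917-130828535 on the plus strand, with 12 merged exon blocks and 3771 exon bases. Asic2 lies at chr10:65870592-66940577 on the minus strand and spans 1069986 bases with 3270 exon bases. Its 2 alternative first exons lie 801490 bases apart, and the counts, summed by gene name, pool the isoforms made from them. Asic3 lies at chr4:10760597-10764643 on the minus strand with 1602 exon bases, and Asic4 at chr9:76941532-76962900 on the plus strand with 2628 exon bases. None of the 4 shares an exon base with another gene of the annotation, although 3 genes lie within the span of Asic2.

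Promoter sequences of Asic1 and Asic2 are shown because Asic1 is the member whose treatment groups were farthest apart and Asic2 is the member whose counts combine a pair of starts. RefSeq windows from 250 bases before to 50 bases after the start, on GRCr8, matched 3 of the 4 genes in 4 windows. Capitals mark CpG dinucleotides, in which cytosine can be methylated, and every sequence is written 5′ to 3′ on the strand of its gene.
Asic1, chr7:132678457-132678756, plus strand: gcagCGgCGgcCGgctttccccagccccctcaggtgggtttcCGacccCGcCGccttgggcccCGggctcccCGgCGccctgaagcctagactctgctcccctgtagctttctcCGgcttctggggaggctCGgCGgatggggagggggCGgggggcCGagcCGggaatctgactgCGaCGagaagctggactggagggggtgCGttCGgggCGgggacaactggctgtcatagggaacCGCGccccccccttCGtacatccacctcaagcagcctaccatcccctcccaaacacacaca
Asic2, chr10:66636012-66636311, minus strand: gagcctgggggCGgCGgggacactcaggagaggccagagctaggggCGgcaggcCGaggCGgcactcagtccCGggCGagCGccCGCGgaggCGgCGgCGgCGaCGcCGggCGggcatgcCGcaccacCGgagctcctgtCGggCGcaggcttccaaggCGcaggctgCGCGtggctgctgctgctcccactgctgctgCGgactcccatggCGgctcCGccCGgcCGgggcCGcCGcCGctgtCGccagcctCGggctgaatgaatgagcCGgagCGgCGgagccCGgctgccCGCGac
Asic2, chr10:67438188-67438487, minus strand: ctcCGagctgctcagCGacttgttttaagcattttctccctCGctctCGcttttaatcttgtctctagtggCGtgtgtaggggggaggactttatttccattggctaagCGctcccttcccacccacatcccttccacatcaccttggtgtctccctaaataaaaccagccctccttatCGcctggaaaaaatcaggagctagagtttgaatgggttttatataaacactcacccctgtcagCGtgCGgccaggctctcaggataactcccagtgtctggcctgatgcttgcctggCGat
The Asic1 window held 23 CpG, more than 80.5% of the 33469 RefSeq windows of this length, whose median was 7. Both starts of Asic2 differed in this respect, with 40 CpG at the start nearer to the end of the gene (percentile 96.8) and 10 at the far start (percentile 58.5). The Asic3 window held 6 (percentile 43.7). Of the motifs searched on both strands, the GC box GGGCGG occurred 2 times in the Asic1 window, 4 times in the CpG-rich Asic2 window and 0 times in the other 2 windows, and 33.1% of all windows held it. The CREB site TGACGTCA (1.83% of all windows), its core TGACG, which is contained in the full site (21.2%), the EGR sites GCGTGGGCG and GCGGGGGCG (3.20%) and the NR4A site AAAGGTCA (1.43%) had 0 matches in the 4 windows. These factors drive activity-regulated genes, and the search says only that these letters are not in these windows.

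The libraries of 11 rats held 10148474 to 40850106 counts each, and that of blast-control rat 6 held 74008. In rat 6 the ASIC genes had 1 count together, on Asic1, and 1 count there was worth 15.8 CPM (CPM being counts scaled to the library size after TMM normalization). The detection floor of 3 counts equals 47.5 CPM in rat 6, which is above every value of Asic3 and Asic4 and all but 1 value of Asic1 in the other rats. Elsewhere it lies at 0.0658 to 0.307 CPM. These floors cover counting error only. Means are therefore given mainly without rat 6, with the 12-rat value where it differs in size or direction. The numeric suffixes of the library names repeat once over the 12 libraries, as in 2 sets of 6. Rat numbers were taken to rise with the suffix within each set, which the labels do not state, and this left 4 assignments. That with rats 1, 7, 9, 20, 32 and 35 in the first set accounted for 94.8% of the first principal component of 11 libraries. Each set holds 3 rats of each treatment, with rat 6 in the second, and the assignment was made partly from the data.

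The ASIC genes were present at very unequal levels in these brains. In CPM per kilobase of exon, the mean level over 11 rats was 16.9 ± 4.13 (SD) for Asic2, 11.2 ± 1.47 for Asic1, 2.91 ± 0.813 for Asic4 and 0.170 ± 0.106 for Asic3. Asic2 stood at percentile 52.8 of the genes that passed the filter on low counts, Asic1 at 40.8, Asic4 at 16.6 and Asic3, which did not pass it, at 0.130. In CPM per kilobase, the order of the levels was the same in each of the 11 rats. In CPM not divided by length, Asic2 was above Asic1 in 10 of 11 rats. The exception was rat 7, with 45.7 CPM for Asic1 and 42.2 CPM for Asic2. The exon length used for Asic2 includes both alternative first exons. On the scale of log2(level per kilobase + 0.5), Asic2 was above Asic1 by 0.55 ± 0.32 (SD, n = 11), Asic1 above Asic4 by 1.81 ± 0.43 and Asic4 above Asic3 by 2.32 ± 0.28. The mean of Asic3 lies below the 0.5 added, which shrinks the last step. With 0.1 added instead, that step was 3.52 ± 0.43. Each mean step differed from 0 by an exact two-sided sign-flip permutation test (p = 0.000977, adjusted p = 0.000977 over 3 steps), the smallest p that 11 rats allow. The pairs tested were set by the order of the mean levels in the same 11 rats. With rat 6 included, the step from Asic2 to Asic1 was 0.23 ± 1.13 and no longer passed (exact adjusted p = 0.579), since rat 6 had 1 count on Asic1 and 0 on Asic2. The exact test over the 5 deep blast-control libraries alone could not go below p = 0.0625.

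**Figure D1:**
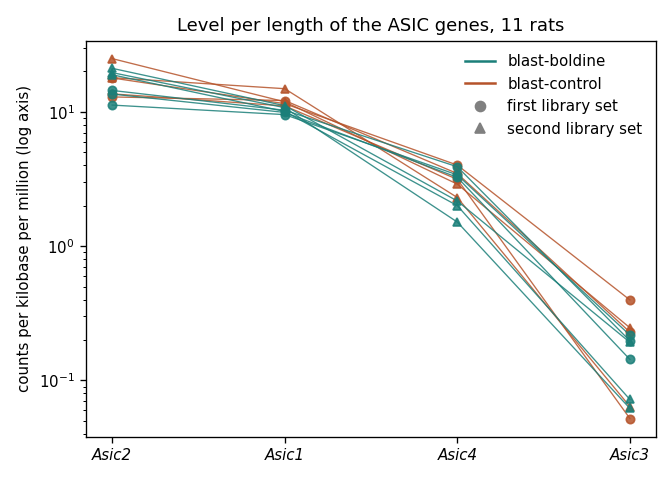
Level per length of the 4 ASIC genes (CPM per kilobase of exon, log axis) in 11 rats, with 1 line per rat, coloured by treatment and with a marker for the library set. Every line descends from Asic2 to Asic1, Asic4 and Asic3, and the mean levels are 16.9, 11.2, 2.91 and 0.170.

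Asic2 was close to Asic1 in some rats and clearly above it in others. The ratio of their levels per kilobase ran from 1.06 to 2.10 with a median of 1.40. In the first library set the median ratio was 1.3 and in the second 1.88. The ratio of Asic1 to Asic4 likewise had a median of 2.95 in the first set and 5.12 in the second. Of the summed ASIC level, Asic2 made up 53.6 ± 6.56%, Asic1 36.2 ± 4.21%, Asic4 9.64 ± 3.38% and Asic3 0.551 ± 0.330% (SD, n = 11 rats).

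**Figure D2:**
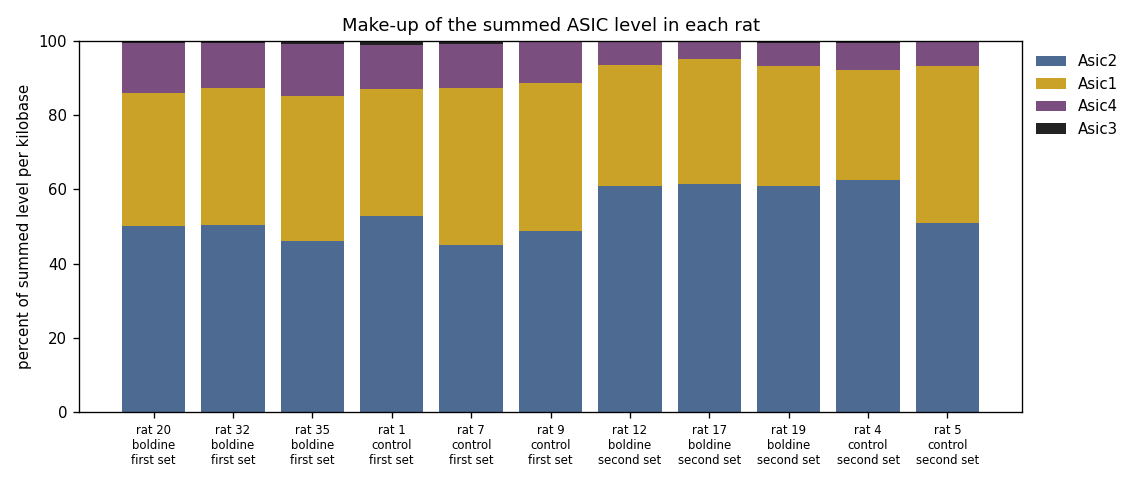
Percent of the summed ASIC level per kilobase taken by each gene, with 1 bar per rat, ordered by library set and treatment, without rat 6. Asic4 takes 11.3 to 13.9% in the 6 rats of the first set and 4.74 to 7.25% in the 5 of the second, while Asic1 takes 34.99 ± 2.73% in blast-boldine and 37.6 ± 5.52% in blast-control rats.

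Asic1, the gene of the subunit that forms most proton-gated channels of brain neurons, was lower in most blast-boldine rats. Its level was 37.9, 40.5, 41.9, 38.7, 37.3 and 35.9 CPM in blast-boldine rats 12, 17, 19, 20, 32 and 35. In blast-control rats 1, 4, 5, 7 and 9 it was 43.3, 44.7, 56.0, 45.7 and 41.7 CPM, and the single count of rat 6 equals 15.8 CPM. Without rat 6, the groups overlapped only in that blast-boldine rat 19 lay above blast-control rat 9, and 5 of 6 blast-boldine rats lay below every blast-control rat. Of the 12529 genes that passed the filter without rat 6, 0.479% had at least 5 blast-boldine rats below every blast-control rat and 0.407% at least 5 above. The mean was 38.7 ± 2.16 CPM (SD, n = 6) in blast-boldine and 46.3 ± 5.64 CPM (n = 5) in blast-control rats, 16.4% lower. With rat 6, whose 15.8 CPM rests on 1 count, the blast-control mean was 41.2 ± 13.4 CPM (n = 6) and the blast-boldine mean 6.14% lower. The highest blast-control value, 56.0 CPM in rat 5, stood apart from the 41.7 to 45.7 CPM of the other 4.

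**Figure D3:**
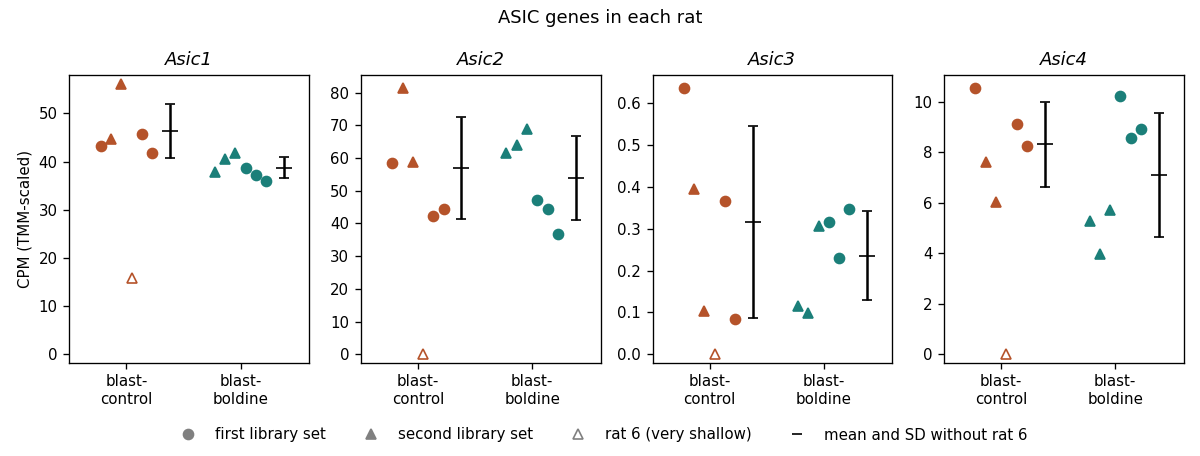
CPM of each ASIC gene in each rat by treatment, with a separate linear axis per gene, circles for the first and triangles for the second library set, an open triangle for rat 6, and the mean and SD without rat 6. Blast-boldine rats lie between 35.9 and 41.9 CPM for Asic1 and deep blast-control rats between 41.7 and 56.0, whereas the groups overlap widely for Asic2 and Asic3. For Asic4, 3 blast-boldine rats, all of the second set, lie below every deep blast-control rat, and the other 3 lie among them.

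The fitted log2 fold change of Asic1 was -0.22 (SE 0.14) in edgeR with all 12 rats and -0.26 (SE 0.10) without rat 6. With the library set as a covariate and without rat 6 it was -0.28 (SE 0.08). DESeq2 with 12 rats gave -0.26 (SE 0.13). Leaving out 1 rat at a time kept it between -0.26 and -0.14, and the value nearest to 0 came without blast-control rat 5. Within the first set, where the highest blast-boldine value was 38.7 CPM and the lowest blast-control value 41.7 CPM, the mean log2 difference was -0.22. Within the second set, without rat 6, it was -0.32, with 41.9 CPM as the highest blast-boldine and 44.7 CPM as the lowest blast-control value. Blast-boldine rats lay below blast-control rats in both sets, as they did for 0.694% of the genes tested. The second set held only 2 deep blast-control libraries, and the fitted difference between the sets in the effect on Asic1 (second minus first) was -0.09 (SE 0.16).

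In bulk tissue, fewer cells of a type and less RNA per cell cannot be told apart. The summed level of 6 neuronal markers overlapped between treatments, at 4997 to 6848 CPM in blast-boldine and 4402 to 7061 CPM in blast-control rats without rat 6. The 4 CA1 pyramidal markers summed to 513 to 653 CPM in blast-boldine and 619 to 894 CPM in blast-control rats, and all 4 had a fitted log2 fold change below 0 without rat 6 (median -0.26, with 0 of 4 under an unadjusted p of 0.05). With the library set as a covariate and without rat 6, 2 of 4 were under it (5.35% of all genes tested). In DESeq2 with 12 rats 1 of 4 was (0.542% of all genes tested). Without rat 6, 5 of 5 microglial markers (median -0.21) and 5 of 5 astrocyte markers (median -0.15) were also below 0, and 4 of 4 endothelial markers were above 0 (median 0.17), with 0 under an unadjusted p of 0.05 in each list. All 5 oligodendrocyte markers (median -0.10) and 2 of 3 oligodendrocyte precursor markers (median -0.24) were below 0 too. In the other lists, 3 of 6 neuronal, 2 of 4 excitatory, 4 of 6 inhibitory, 2 of 4 CA2 and CA3, and 0 of 2 dentate granule markers were below 0. These lists also had 0 under that p. With the set as a covariate as well, 1 of 5 microglial markers (Tmem119) and 1 of 3 precursor markers (Cspg4) had an unadjusted p under 0.05. In that fit 5.35% of all genes tested did. The 4 choroid plexus markers summed to 8.23 to 1172 CPM in blast-boldine and 12.8 to 1129 CPM in blast-control rats, with medians of 434 and 15.0 CPM. All 4 had a fitted log2 fold change above 0 (median 0.38 without rat 6, and 0.78 with the set as a covariate as well), with 0 under an unadjusted p of 0.05. No marker of these lists that the count table holds was at 0 in any of the 11 libraries. The part of these markers in the values of Asic1 was not tested.

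Asic2, whose subunits change the acid sensitivity of the channels they join, showed no separation of the treatments. It was 61.7, 64.0, 68.9, 47.1, 44.3 and 36.7 CPM in blast-boldine rats 12, 17, 19, 20, 32 and 35. In blast-control rats 1, 4, 5, 7 and 9 it was 58.4, 81.4, 58.7, 42.2 and 44.4 CPM, with 0 counts in rat 6. The highest value, in blast-control rat 4, and the lowest, in blast-boldine rat 35, lay in different library sets, and the ranges of the treatments overlapped over most of their length. The blast-boldine mean was 53.8 ± 12.8 CPM (SD, n = 6). It lay below the blast-control mean of 57.0 ± 15.6 CPM without rat 6 (n = 5) and above that of 47.5 ± 27.1 CPM with rat 6 (n = 6). The fitted log2 fold change was -0.02 (SE 0.27) with 12 rats and -0.09 (SE 0.21) without rat 6, and it reached 0.16 without blast-control rat 4. The difference between the treatments' mean log2 CPM was -0.17 within the first set and -0.09 within the second, without rat 6.

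Asic4, a modulating member of the family, was 5.26, 3.97, 5.69, 10.2, 8.54 and 8.91 CPM in the blast-boldine rats in the same order. The blast-control values were 10.5, 7.60, 6.04, 9.12 and 8.25 CPM in rats 1, 4, 5, 7 and 9, with 0 counts in rat 6. The 3 lowest values were those of blast-boldine rats of the second set, and the other 3 blast-boldine rats lay among the blast-control rats. The means were 7.10 ± 2.46 (SD, n = 6) and 8.31 ± 1.68 CPM (n = 5, without rat 6). With the 0 of rat 6 the blast-control mean was 6.92 ± 3.71 CPM (n = 6), below that of blast-boldine rats. The fitted log2 fold change was -0.21 (SE 0.26) with 12 rats and -0.23 (SE 0.24) without rat 6. The difference in mean log2 CPM was -0.01 within the first set and -0.43 within the second, without rat 6. The fitted difference between the sets in the effect (second minus first) was -0.41 (SE 0.26).

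Asic3 was close to the limit of detection, with 1 to 29 counts per library in the 11 deeper rats and 0 in rat 6. Blast-boldine rats had 0.0992 to 0.348 CPM and blast-control rats without rat 6 had 0.0834 to 0.637 CPM, and the blast-control range enclosed the blast-boldine range. The means of 0.236 ± 0.107 (SD, n = 6) and 0.317 ± 0.230 CPM (n = 5) differed by less than the spread among blast-control rats. A difference of Asic3 was not detectable at this depth.

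Among the 3 ASIC genes that passed the filter, 0 had an unadjusted p under 0.05 in edgeR with 12 rats, where 1.07% of all genes tested did. Asic1 was the 1 of 3 without rat 6 (1.40% of all genes), 1 of 3 with the library set as a covariate and without rat 6 (5.35%), and 1 of 4 in DESeq2 with 12 rats (0.542%). Since the genes were chosen from this contrast, these counts are given beside the background without being read as a result. With Benjamini-Hochberg adjustment 0 members and 0.00% of all genes passed, in edgeR as in DESeq2. The 3 fitted changes were below 0, with a median of -0.21 against 0.00 over all genes tested with 12 rats and -0.23 without rat 6. Both ASIC medians are the value of Asic4 (SE 0.26 and 0.24).

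**Figure D4:**
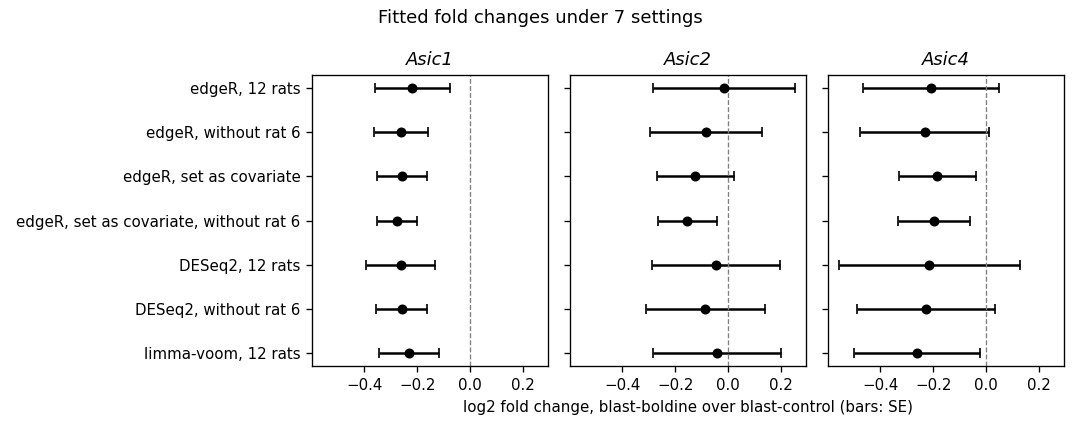
Fitted log2 fold change, blast-boldine over blast-control, with its SE, for the 3 ASIC genes that passed the filter under 7 settings. Asic1 stays between -0.28 and -0.22 in these settings, Asic2 between -0.16 and -0.02, and Asic4 between -0.26 and -0.18. Bars of 1 SE end below 0 in every setting for Asic1 only, which was chosen with this contrast known. The settings refit the same rats.

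The library sets moved Asic2 and Asic4 in opposite directions. Asic2 had a mean of 45.5 ± 7.21 CPM (SD, n = 6) in the first set and 66.9 ± 8.90 CPM (n = 5, without rat 6) in the second, and the sets did not overlap. Asic4 went the other way, with 9.27 ± 0.923 and 5.71 ± 1.32 CPM, also without overlap. Asic1 had 40.4 ± 3.78 and 44.2 ± 7.05 CPM and overlapped. With 12 rats, the fitted log2 difference, second minus first, was 0.54 (SE 0.15) for Asic2, -0.70 (SE 0.15) for Asic4 and 0.14 (SE 0.09) for Asic1, and 2 of the 3 passed Benjamini-Hochberg adjustment in edgeR. Such a difference was common, since 66.1% of all genes passed the same test and 48.6% of genes did not overlap between the sets. The sets were themselves assigned by the main axis of variation of all genes, so the test is partly fixed by the assignment. Markers differed between the sets too. The neuronal list had a median of 5108 CPM in the first and 6844 CPM in the second set, without rat 6. Lists of neuron types went different ways: excitatory 2319 and 2972, dentate granule 178 and 245, and CA1 632 and 652 CPM. CA2 and CA3 markers were at 556 and 333 CPM, and inhibitory markers at 491 and 420 CPM. The oligodendrocyte list had 5362 and 3041 CPM, the precursor list 269 and 198, the microglial list 276 and 126, and the astrocyte list 3905 and 3362. Endothelial markers had 99.3 and 259 CPM, and choroid plexus markers 340 and 15.0 CPM. The part of these markers in the values of Asic2 and Asic4 was not tested.

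The share of Asic1 in the summed ASIC level differed by less than the spread between rats when rat 6 was left out, at 34.99 ± 2.73% in blast-boldine (n = 6) and 37.6 ± 5.52% in blast-control rats (n = 5). The shares of Asic2 were 55.0 ± 6.86% and 52.0 ± 6.52%, and those of Asic4 9.51 ± 4.12% and 9.81 ± 2.68%. The summed level per kilobase was 29.6 ± 3.67 in blast-boldine and 33.1 ± 4.94 in blast-control rats. Asic4 made up 12.5 ± 1.03% in the first set and 6.25 ± 0.925% in the second.

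Asic1 varied less across rats than Asic2 and Asic4. The SD of its log2 CPM over 11 rats was 0.176, at percentile 17.3 of the genes tested, against 0.348 for Asic2 and 0.414 for Asic4. After the mean of each library set was removed, the SD was 0.174 for Asic1, 0.203 for Asic2 and 0.230 for Asic4, at percentiles 47.0, 59.5 and 69.0, so that within sets Asic1 stood near the middle of the genes tested. Asic4 had 40 to 480 counts per library in these rats and Asic1 408 to 1974, so counting error is larger for Asic4. The part of counting error in these SDs was not tested. With set means removed, the genes most like Asic1 over 11 rats, of 12324 compared, were Bach2, a transcriptional repressor (Pearson r = 0.918), Efhd2, a calcium-binding protein (r = 0.910), and Sstr2, a somatostatin receptor (r = 0.907). The genes most like Asic2 were Dhx34, Pi4k2a and Ppie (r = 0.957, 0.949 and 0.938). Those most like Asic4 were Hes5, an effector of Notch signalling (r = 0.948), Sdr39u1 (0.922) and Rpusd2 (0.910). These are the best of many genes over few libraries that also share depth and preparation, and they are given as a description. The difference between treatments was not removed. Bach2, Efhd2 and Sstr2 had fitted log2 fold changes of -0.19, -0.26 and -0.24 without rat 6, and those of the genes most like Asic2 and Asic4 ran from -0.48 to -0.06.

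The other channels of the family were scarcely detected. In the 11 deeper rats Asic5 had 0 to 3 counts per library, and the epithelial sodium channel subunits Scnn1a, Scnn1b and Scnn1g had 4 to 23, 0 to 3 and 1 to 18 counts, so 0 of 4 passed the filter. Among proteins that bind or modulate ASICs, 24 of 24 were tested without rat 6, 1 was higher and 0 lower at an unadjusted p under 0.05 in edgeR, where 1.40% of all genes tested passed in either direction, and 0 passed adjustment. The median log2 fold change was 0.02 against 0.00 for all genes. S100a10, an annexin partner that carries channels to the membrane, was the gene with the smallest p of the list, at 14.8 ± 2.03 CPM (SD, n = 6) in blast-boldine and 11.8 ± 1.68 CPM (n = 5) in blast-control rats. In 5 of 6 blast-boldine rats it lay above every blast-control rat, as at least 5 did for 0.407% of all genes, with a fitted log2 value of 0.33 (SE 0.14), and its adjusted p from edgeR was 0.9998. Stoml3, a stomatin-like protein that regulates mechanosensitive and ASIC currents, had a log2 fold change of 0.41 (SE 0.28) and Akap5, a kinase anchor of the postsynaptic density, of 0.28 (SE 0.30).

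Other proton-sensing receptors and channels did not pass either, with 12 of 15 tested, 0 under an unadjusted p of 0.05 without rat 6 and a median of -0.07. Kcnk3, an acid-inhibited potassium channel, was at 2.40 ± 1.22 CPM in blast-boldine (n = 6) and 3.49 ± 1.54 CPM in blast-control rats (n = 5), with a log2 fold change of -0.53 (SE 0.38). Trpv1, the capsaicin receptor, had -0.37 (SE 0.29). With the library set as a covariate and without rat 6, Kcnk3 and Trpv1 were the 2 of 12 with an unadjusted p under 0.05, against 5.35% of all genes in that fit, and 0 passed adjustment.

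Genes of pH regulation and lactate transport, which set how acidic the fluid around the channels becomes, gave 18 tested of 25 listed, 0 under an unadjusted p of 0.05 and a median of 0.01. The 7 others were not matched by symbol. Car7, a neuronal carbonic anhydrase, had a log2 fold change of -0.25 (SE 0.20), Slc4a10, a sodium-dependent bicarbonate transporter of neurons, 0.15 (SE 0.14), and Slc9a5, a sodium-proton exchanger, -0.12 (SE 0.12). With the library set as a covariate and without rat 6, 1 of the 18 was lower at an unadjusted p under 0.05, Slc4a3, a chloride-bicarbonate exchanger, named after its value was seen. In that fit 5.35% of all genes tested had such a p in either direction. The vacuolar proton pump, which acidifies synaptic vesicles and so loads the cleft with protons on release, had all 17 listed genes tested with 0 under an unadjusted p of 0.05. Its median was -0.02 without rat 6 and 0.04 with all 12 rats. Atp6v1d had 0.16 (SE 0.10), Atp6v0a2 0.11 (SE 0.09) and Atp6v0c -0.24 (SE 0.35). The adjusted count was 0 in each of these lists in edgeR and in DESeq2.

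**Figure D5:**
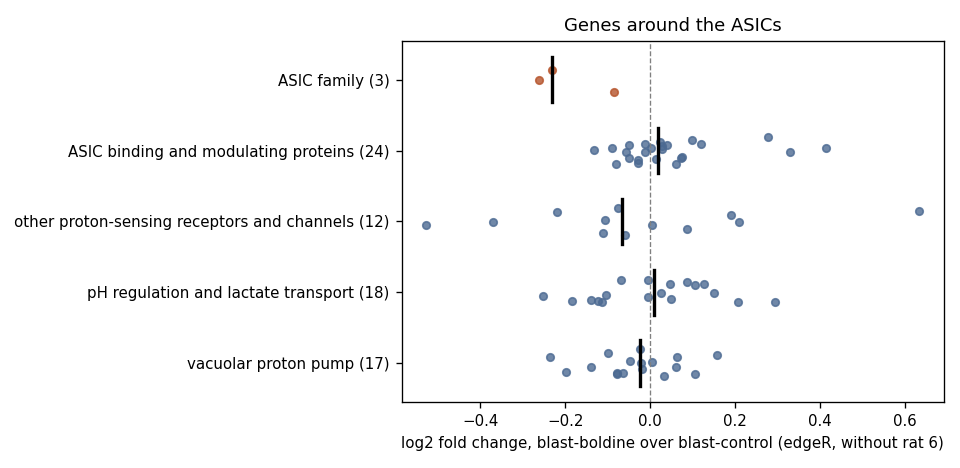
Log2 fold change, blast-boldine over blast-control, of every tested gene in 5 lists (edgeR, without rat 6), with 1 point per gene, a black bar at the median and the number of genes in brackets. The ASIC median, over 3 genes chosen with this contrast known, lies at -0.23, which is the value of Asic4 (SE 0.24). The medians of the other 4 lists lie between -0.07 and 0.02.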

How the data were processed

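Hippocampal RNA of 12 rats, 1 library each, was sequenced after removal of ribosomal RNA, keeping strand. The authors discarded duplicate reads, trimmed the rest, aligned them to mRatBN7.2 with STAR 2.7.11b and counted them on exons by gene name and strand with featureCounts (Subread 2.0.1, per the labels). The deposited values are raw counts, to which quasi-likelihood models were fitted in edgeR 4.0.16 (R 4.3.3, TMM, filterByExpr with a minimum of 10 counts, 12325 genes kept, Benjamini-Hochberg adjustment at 0.05), with treatment as the only term. Levels per kilobase divide CPM by merged exon length, with a pseudocount of 0.5 on the log2 scale. Each rat is 1 replicate. DESeq2 1.42.0, limma-voom (limma 3.58.1), RLE size factors, other filters, the library set as a covariate, leaving out rats, a pseudocount of 0.1 and levels not divided by length were alternatives, and leaving out rat 6 with a second rat, no filter without rat 6 and a treatment by set term were added after seeing the data. The members and lists were chosen with earlier results of these data known. Of the genes around the ASICs, the 3 tested genes per list with the smallest p without rat 6 are named, except 1 that is not reported here, and per member the 3 genes with the highest correlation. The edgeR test and the sign-flip test were run on simulated data. The simulated counts had the same dispersion in every gene, no difference between library sets and larger changes than that of Asic1. They therefore do not cover set differences or changes as small as that of Asic1. Of the 17494 genes, 1804 had no count. The sign-flip permutations were enumerated with numpy 2.4.6 in Python 3.11.15.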

Additional observations from a re-analysis of the deposited data

Results flagged for a closer look

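A test for a value far from the rest of its group was run on 18 groups of values of the ASIC genes and flagged 4, where chance flags about 1 in 20 groups. Of these, 3 belong to the shallow library of blast-control rat 6, in which the 4 genes had 1 count together. Asic1 was at 15.8 CPM there, against 41.7 to 56.0 CPM in the other blast-control rats. Its share of the summed ASIC level was 100%, against 29.7 to 42.2%, and the summed level was 4.20 CPM per kilobase, against 27.8 to 39.9. Without rat 6, the Asic1 level of 56.0 CPM in blast-control rat 5 stood apart from the 41.7 to 45.7 CPM of the other 4 blast-control rats, and without rat 5 the fitted log2 fold change of Asic1 was -0.14.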

How the results depend on the processing

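No paired analysis was possible because the groups share no replicate number. No gene passed Benjamini-Hochberg adjustment for the boldine comparison under any of the 21 alternatives run, nor for the treatment by set term without rat 6. The count of alternatives holds the same edgeR fit without rat 6 both by itself and among the fits with 1 rat left out. The genes with an unadjusted p under 0.05 numbered 132 in edgeR with 12 rats, 85 in DESeq2, 279 in DESeq2 without rat 6, 254 with no filter on low counts, 474 with the library set as a covariate, 670 with the set and without rat 6, and 85 to 214 when 1 rat was left out, with 214 without blast-control rat 5, 87 without blast-control rat 1 and 85 without either blast-boldine rat 12 or 17. Asic1 kept a negative log2 fold change in 33 alternatives (-0.30 to -0.14), as did Asic4 (-0.36 to -0.10), while Asic2 ran from -0.18 to 0.16. These 33 repeat the fit without rat 6 in the same way, and all refit the same rats.

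The step in level from Asic2 to Asic1 passed the threshold under 14 alternatives and missed it at 0.23 with all 12 libraries. In the 5 deep blast-control libraries alone, the steps of 0.46, 1.81 and 2.40 could not pass. The set differences of Asic2 and Asic4 passed only under the first of the 4 assignments. In each, the set with rat 1 is called the first. The second assignment (58.1% of the first principal component) is the first with rats 1 and 4 exchanged, so its names are swapped, and its values of -0.10 for Asic1, -0.31 for Asic2 and 0.48 for Asic4 have their signs from that naming. The fourth (3.07%) divides each main set evenly and gave -0.00728, -0.15 and 0.28, and under the third (15.0%) Asic2 at 0.36 and Asic4 at -0.47 no longer passed. The difference in the Asic1 share was -13.0 percentage points with rat 6, whose share of 100% rests on 1 count, and -2.61 without it, and leaving out 1 rat at a time gave -16.7 to -2.61. Depth limits Asic3 and all values of rat 6.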
